A study of Mus musculus with 5 samples.

Results

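SUZ12 binding sites were compared between Mbd3-knockout mouse embryonic stem cells (ESCs) that carried MBD3 without its coiled-coil domain (ΔCC) and the same kind of cells with the construct named WT, which is taken here as full-length MBD3 because the labels give that name alone. A gene was taken as listed if the deposited table of a library linked at least 1 SUZ12 peak to it, centred 5 kb or less from its start site. By this rule 1788 genes were listed in WT, in ΔCC or in both, out of 1935 genes listed in any of the 4 SUZ12 libraries of the series. The WT list held 1664 genes and the ΔCC list 1221. They fell into 1097 genes in both lists, 567 in WT only and 124 in ΔCC only.

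SUZ12 is a core subunit of Polycomb repressive complex PRC2, which methylates histone H3 on lysine and keeps developmental genes silent, in ESCs above all the genes of transcription factors that later direct lineages. MBD3 is a subunit of NuRD, a complex that removes acetyl groups from histones and moves nucleosomes, and ESCs that lack it form stable NuRD poorly and differentiate poorly. A coiled coil is a stretch of protein through which subunits often bind to each other. All SUZ12 libraries came from male 129SV ESCs with a knockout of Mbd3, grown in conventional ESC medium with LIF and precipitated with an antibody to Suz12. A library named GFP is taken as the control without MBD3, and a library named deltaMBD (ΔMBD) came from cells with a form of MBD3a that lacks the methyl-CpG-binding domain. The ΔCC form is likewise described as a mutant of MBD3a. The number of clones, how the constructs were driven and how much protein the cells made are not stated in the sources used here. An input library from cells labelled EBRTcH3 had no peak table and entered no comparison.

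Each group was 1 library, so no comparison below has a replicate check or a test. Shares carry exact 95% binomial (Clopper-Pearson) intervals that cover counting error only. Distinct peaks numbered 2671 in WT and 2243 in ΔCC, and the highest peak number was 4097 in WT and 3558 in ΔCC. The longer WT list thus went with more peaks called, and the part of that difference in the results was not tested. Reads per library, peak widths and peak heights are not in the tables: a gene without a listed peak was not shown to lack SUZ12, and a broad region called once cannot be told apart from the same region called as several peaks. A peak table gives no expression and so no check of the cell type. Of the ESC markers, Esrrb was listed in both libraries, and Pou5f1, Nanog, Sox2, Klf4 and Zfp42 in neither. Of the wider pluripotency list, 3 genes were listed in WT, and Tbx3 and Prdm14, described below, were missing from ΔCC. Mbd3 and Suz12 were in neither list.

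PRC2 in mammals is found at promoters rich in unmethylated CG pairs, and 3 promoters, 1 per gene set, show the sequence under such a site. The sequences are the 250 bases before the start site in RefSeq (GRCm38.p6), written 5′ to 3′ on the gene's strand with CG pairs in capitals. Each gene had the most peaks among the candidates of its set with a peak centred in this window. There were 40 candidates in WT only, 8 in both lists and 2 in ΔCC only. Nfil3, a bZIP transcription factor of circadian and immune cells, was listed in WT only and is at chr13:52981040-52981289 on the minus strand. Isl1, a LIM homeobox factor of motor neurons and heart progenitors, was in both lists and is at chr13:116309689-116309938 on the minus strand. Tmem59l, a membrane protein gene, was in ΔCC only and is at chr8:70487349-70487598 on the minus strand.
Nfil3: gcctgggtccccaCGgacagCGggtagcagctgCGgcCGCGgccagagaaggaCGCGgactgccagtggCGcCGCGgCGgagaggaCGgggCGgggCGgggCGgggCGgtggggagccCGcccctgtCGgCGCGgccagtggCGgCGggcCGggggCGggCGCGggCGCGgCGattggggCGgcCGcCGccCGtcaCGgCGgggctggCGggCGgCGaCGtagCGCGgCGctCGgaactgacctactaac
Isl1: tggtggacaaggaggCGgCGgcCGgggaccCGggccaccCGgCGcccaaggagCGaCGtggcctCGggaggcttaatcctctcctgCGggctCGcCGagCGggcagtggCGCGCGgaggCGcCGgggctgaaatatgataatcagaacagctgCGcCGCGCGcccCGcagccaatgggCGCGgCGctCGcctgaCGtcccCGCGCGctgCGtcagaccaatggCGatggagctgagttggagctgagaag
Tmem59l: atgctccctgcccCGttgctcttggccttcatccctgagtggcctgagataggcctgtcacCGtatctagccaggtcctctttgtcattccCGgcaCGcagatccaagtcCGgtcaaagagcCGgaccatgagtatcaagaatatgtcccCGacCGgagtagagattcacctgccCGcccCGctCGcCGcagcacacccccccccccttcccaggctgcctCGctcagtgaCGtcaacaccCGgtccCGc
Nfil3 held 43 CG pairs at 81.6% GC, a number that 0.712% of the 32851 RefSeq mouse promoter windows reach. Isl1 held 33 CG pairs (reached by 4.03% of windows) and Tmem59l 16 (reached by 25.4%). The WT centre in the window was at -35 bp for Nfil3 and -30 bp for Isl1, and the ΔCC centre at -108 bp for Isl1 and -73 bp for Tmem59l. These distances were measured by the authors on mm9 start sites, which may differ from those of RefSeq. Windows could be matched for 70.4% of the genes in both lists, 72.0% of those in WT only and 67.7% of those in ΔCC only, too few to compare CG content between the sets.

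In the direction from WT to ΔCC, 567 of the 1664 WT genes were missing (34.1%, interval 31.8 to 36.4). In the other direction, 124 of the 1221 ΔCC genes were missing from WT (10.2%), and the other 89.8% (interval 88.0 to 91.5) were listed in both. Neighbouring genes can share a peak, and the WT-only genes formed 556 groups without a shared peak and the ΔCC-only genes 109. The missing genes were not spread evenly over gene families. Of 910 genes placed in a family or list by name, those of transcription factor families were mostly in both lists, while among families with at least 10 WT genes the share in WT only was highest for small GTPase regulation and solute carriers.

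With the 5 kb window, transcription factor genes were nearly all kept, where kept means listed in both libraries. With a window of 1 kb, 67.3% of them were kept (interval 59.5 to 74.4), against 53.6% of all WT genes. The 14 families of the homeobox, Pax, LIM, Irx, POU, Sox, forkhead, T-box, Gata, bHLH, zinc finger and nuclear receptor types together held 300 WT genes, of which 275 were listed in ΔCC (91.7%, interval 87.9 to 94.5). Of the 1364 other WT genes, 822 were (60.3%, interval 57.6 to 62.9). The loss was below 34.1% in each of the 14 families. None of the WT genes was missing from ΔCC among the 20 Hox genes of the body axis, the 8 Pax genes, the 11 LIM homeobox genes, the 10 Sox genes or the 5 Gata genes. Of 75 other homeobox genes 73 were kept, among them Cdx2 of the trophectoderm, Nkx2-1 of lung and thyroid, Otx2 of the forebrain and Pdx1 of the pancreas. At 1 kb this family kept 20 of 29 (69.0%, interval 49.2 to 84.7), an interval that contains the 53.6% of all WT genes. The bHLH family kept 38 of 41, with Neurog2 and Olig2 of the nervous system and Hand1 and Twist1 of mesoderm and placenta. The T-box family and the other zinc finger genes kept least, with 7 of 10 (interval 34.8 to 93.3) and 15 of 21 (47.8 to 88.7). These families cover the factors recognised by name and not every transcription factor: Nfil3 and Irf2, for example, counted as other genes.

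**Figure D1:**
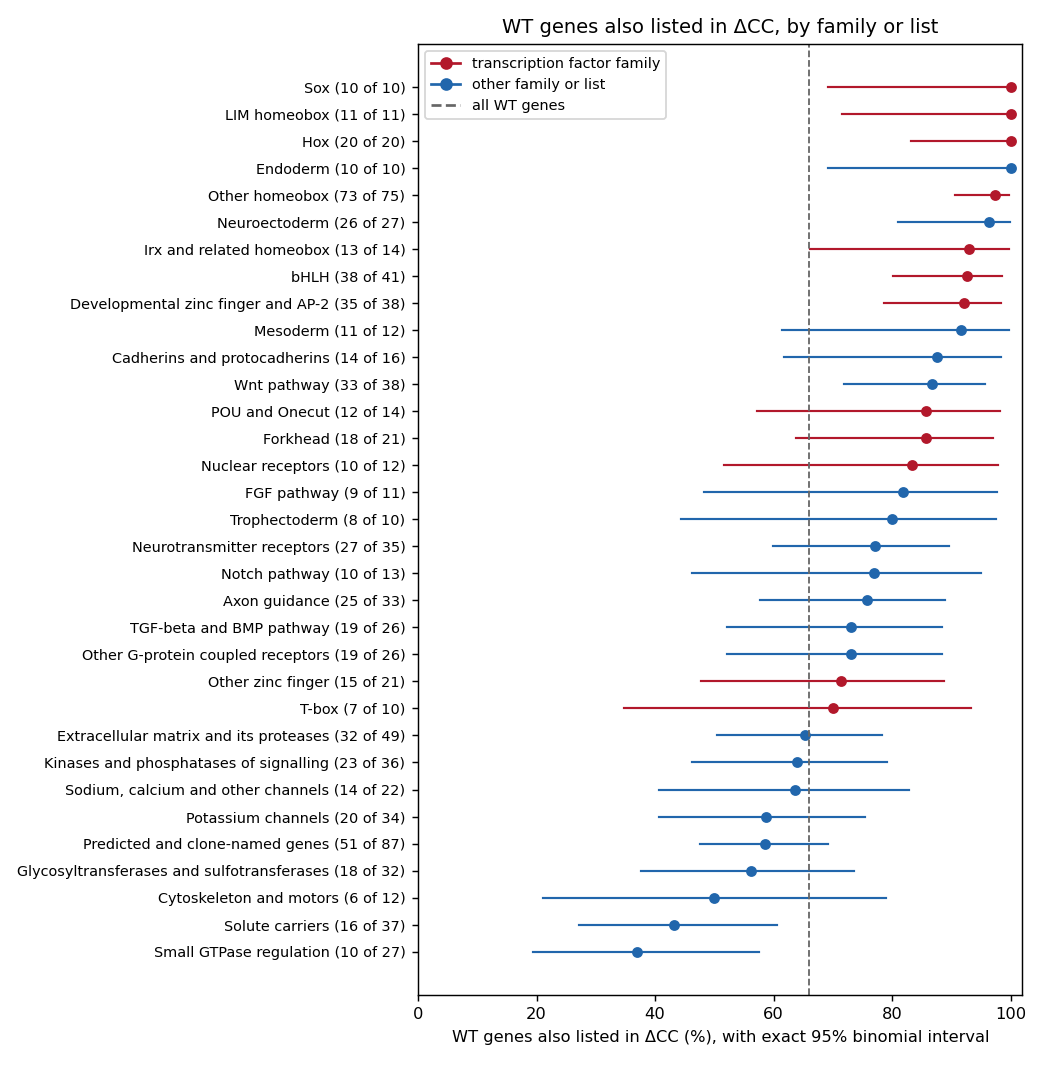
The share of WT genes also listed in ΔCC, in percent, for the families and lists with at least 10 WT genes; points are shares, lines exact 95% binomial intervals, the dashed line is the 65.9% of all WT genes, and a gene can stand in more than 1 list. Transcription factor families lie at or above 70.0%, and small GTPase regulation is lowest at 37.0%.

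The difference remained when genes were compared at the same number of WT peaks and the same distance of the nearest WT peak. Genes with a single WT peak were kept in 131 of 145 cases for transcription factors (90.3%, interval 84.3 to 94.6) and in 398 of 768 for other genes (51.8%, interval 48.2 to 55.4). With 2 WT peaks the shares were 89.0% and 68.6%, and with 3 or more 98.4% and 77.5%. By position, transcription factors whose nearest WT centre lay under 500 bp from the start site were kept at 85.9% and other genes at 56.9%. Over 12 combinations of peak number and distance, the share was higher for transcription factors in 12. In several of them the intervals of the 2 classes overlapped. With 2 peaks and under 500 bp, for example, the shares were 76.2% (interval 52.8 to 91.8) and 62.7% (56.3 to 68.7). The combination of 3 or more peaks and 2000 to 5000 bp held only 3 transcription factors. Among other genes the kept share was lowest where WT had 1 peak.

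**Figure D2:**
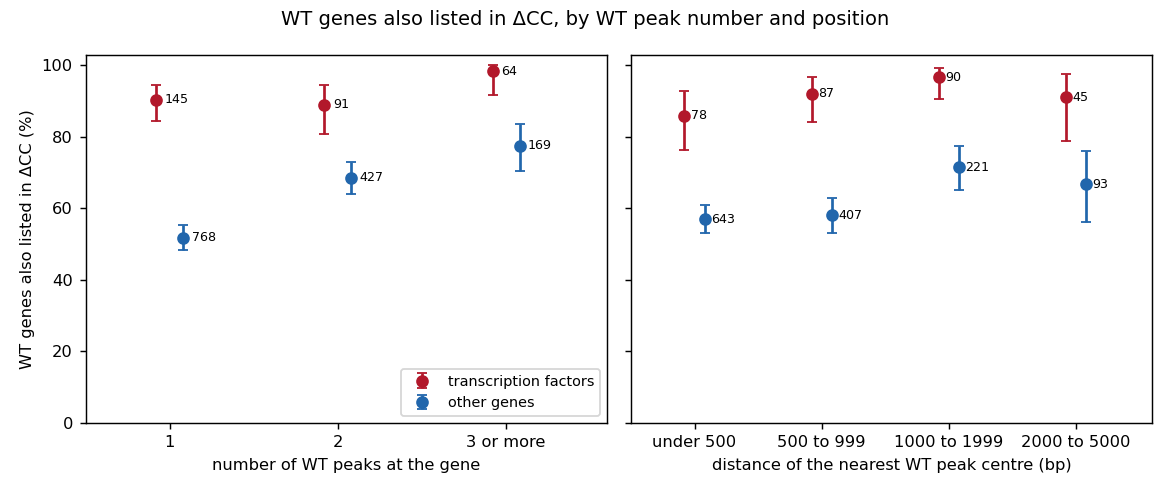
The share of WT genes also listed in ΔCC (percent, y axis) by the number of WT peaks at the gene (left) and by the distance of the nearest WT peak centre in bp (right), with exact 95% binomial intervals and the number of WT genes beside each point. Transcription factors, in red, lie between 85.9% and 98.4%, and other genes, in blue, between 51.8% and 77.5%.

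The 25 transcription factor genes in WT only included several with a role in stem or precursor cells. Tbx3, a T-box factor that supports ESC self-renewal and is used later in limb and heart, had WT peaks centred at -2567, 304, 1150 and 2578 bp and ΔMBD peaks at -2390, -791, 865 and 3792 bp. It had no peak in ΔCC or GFP. Prdm14, a PR-domain factor of naive ESCs and germ cells, had WT peaks at 377 and 1141 bp and a ΔMBD peak at 198 bp, again with none in ΔCC or GFP. Neurod1, a bHLH factor of neurons and endocrine pancreas, followed with WT peaks at -529 and 1359 bp and a ΔMBD peak at -660 bp. These 3 genes were alike in being listed with WT and with ΔMBD alone, as were 64.9% of all WT-only genes.

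Other WT-only factors departed from that pattern. Tfap2c, an AP-2 factor of trophectoderm and germ cells, had a WT peak at -1071 bp and no peak in the other 3 libraries, and Foxp4, a forkhead factor of lung and gut, had WT peaks alone, at 1204 and 2129 bp. Tbx1, a factor of the pharyngeal arches, had a WT peak at 678 bp, a GFP peak at 4545 bp and a ΔMBD peak at -574 bp. Prdm8, a PR-domain factor of neurons, had WT peaks at -319 and 4917 bp, GFP peaks at 953 and 3444 bp and ΔMBD peaks at -556, 805 and 3337 bp. Of the 25 genes, 21 were listed in ΔMBD and 3 in GFP. The remainder of the 25 with roles in differentiation included Foxo3, a forkhead factor downstream of insulin signalling, with WT peaks at 352 and 1282 bp, and the nuclear receptors Nr3c1, the glucocorticoid receptor, at -2335 bp, and Rxra, the retinoid X receptor, at 418 bp. ΔMBD had peaks at Foxo3 (1091 and 1614 bp), Nr3c1 (-1825 bp) and Rxra (135 and 645 bp), and GFP and ΔCC had none.

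Lists of lineage genes overlapped with these families and showed few losses. All 10 WT genes of the endoderm list were kept, among them Gata4, Gata6, Sox17 and Foxa2. Of the neuroectoderm list 26 of 27 were kept, with Neurod1 missing, and of the mesoderm list 11 of 12, with Kdr missing. Kdr, which encodes the VEGF receptor of endothelial precursors, had WT peaks at 400 and 1732 bp and ΔMBD peaks at 285 and 1432 bp. The trophectoderm list kept 8 of 10 and missed Tfap2c and Fgfr2, an FGF receptor with WT peaks at 142 and 694 bp and a ΔMBD peak at 628 bp. Neither Kdr nor Fgfr2 had a GFP peak. These lists are short, and the interval of the mesoderm share, for example, covers values below that of all WT genes.

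Most WT genes of the signalling pathways were kept, but of their intervals only that of the Wnt list lay above the 65.9% of all WT genes. The Wnt list kept 33 of 38 WT genes (86.8%, interval 71.9 to 95.6), among them the ligands Wnt1, Wnt3a and Wnt5a and the secreted inhibitors Dkk2, Sfrp1 and Frzb. Its missing members were Wnt2, a ligand, the Frizzled receptors Fzd3, Fzd4 and Fzd9, and Lgr5, a receptor for R-spondins on stem cells. Lgr5 had a WT peak at 618 bp and ΔMBD peaks at -369 and 1274 bp, while Fzd4 had a WT peak at 1115 bp alone. The ligand Wnt2 was the one of these 5 with a GFP peak, at -195 bp, beside WT at -559 bp and ΔMBD at -1433 and -25 bp. A further Frizzled receptor, Fzd10, was in ΔCC only, at 422 bp.

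The TGF-β and BMP list kept 19 of 26 (73.1%, interval 52.2 to 88.4). Bmp4, a ligand that induces mesoderm and germ cells, had a WT peak at 1641 bp and a ΔMBD peak at 1251 bp, and Chrd, which encodes the BMP antagonist chordin, had WT peaks at -460 and 746 bp and ΔMBD peaks at -624, 741 and 1821 bp. Neither had a peak in ΔCC or GFP. The antagonists Nog, Grem1 and Fst and the ligands Bmp2 and Bmp7 were kept. The FGF list kept 9 of 11, missing Fgf2 and Fgfr2, and the Notch list 10 of 13, missing the ligand Jag1, the effector Heyl and Rbpjl. Jag1 had a WT peak at 1070 bp and ΔMBD peaks at 272 and 1782 bp. Shh, Ihh and Dhh, the hedgehog ligands, were all in both lists, and Gli2, a transcription factor of that pathway, and Boc, a co-receptor, were in ΔCC only, with centres at 1098 and 1342 bp for Gli2 and at 644 bp for Boc. Neither Gli2 nor Boc had a peak in GFP or ΔMBD.

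Among families with at least 10 WT genes, the highest shares missing were those of small GTPase regulation, solute carriers, and cytoskeleton and motors. Small GTPase regulation lost 17 of 27 WT genes (63.0%, interval 42.4 to 80.6), which lies wholly above the 34.1% of all WT genes. Solute carriers, the transporters of ions and nutrients, lost 21 of 37 (56.8%, interval 39.5 to 72.9), also above it. Neither interval stood apart from all genes among those with at least 2 peaks, where solute carriers kept 73.3% (interval 44.9 to 92.2) and small GTPase regulation 6 of 12 genes (21.1 to 78.9%), against 75.6% of all genes. With a window of 1 kb, solute carriers kept 41.7% (25.5 to 59.2), which contains the 53.6% of all genes, and small GTPase regulation 28.6% (11.3 to 52.2), which does not. Cytoskeleton and motor genes lost 6 of 12 (interval 21.1 to 78.9%), a short list whose interval contained 34.1%. The intervals of glycosyltransferases and sulfotransferases (14 of 32, 43.8%, interval 26.4 to 62.3) and of potassium channels (14 of 34, 41.2%, interval 24.6 to 59.3) contained it too, as did that of sodium, calcium and other channels (8 of 22, 36.4%, interval 17.2 to 59.3). Neurotransmitter receptors, with 8 of 35 missing, and axon guidance genes, with 8 of 33, were below it but with intervals that also contained it. The families were read side by side with the results known, and none of these intervals is adjusted for their number.

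Single genes of these families show how the WT peaks lay. Dock8, an exchange factor for Cdc42 in immune cells, had WT peaks at -476, -48 and 599 bp and a ΔMBD peak at 438 bp. Rasgrf2, an exchange factor for Ras, had WT peaks at -593, 35 and 585 bp and ΔMBD peaks at -607, 343 and 856 bp. Slc24a3, a sodium-calcium-potassium exchanger, had WT peaks at 91, 766 and 1531 bp and ΔMBD peaks at 954 and 1413 bp. In all 3, the peaks were within 2 kb of the start site, and ΔCC and GFP had none.

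A channel, a receptor, a transporter and a glycan enzyme were also among the WT-only genes. Kcns3, a potassium channel subunit, had WT peaks at 43, 785 and 1618 bp and ΔMBD peaks at -298, 773 and 1610 bp. Htr1a, a serotonin receptor, had WT peaks at 615, 1268 and 2063 bp and ΔMBD peaks at 271 and 1550 bp. Slc6a4, the serotonin transporter, had WT peaks at -485 and 272 bp, ΔMBD peaks at -395 and 563 bp and, unlike Kcns3 and Htr1a, a GFP peak at 148 bp. Galnt3, which starts O-linked glycans, had WT peaks at -1418, 404 and 2417 bp and ΔMBD peaks at -1090, 554 and 1847 bp, with none in GFP. ΔCC had no peak at any of these genes.

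The WT-only genes with the most peaks had 4 each. Nfil3, whose promoter is printed above, had WT peaks at -977, -35, 1110 and 2164 bp and ΔMBD peaks at -409, 1530 and 3299 bp. Mpped1, a metallophosphoesterase gene of the brain, had WT peaks at -2056, -994, -240 and 705 bp and ΔMBD peaks at -651, 101 and 718 bp. Kiss1r, the kisspeptin receptor of the reproductive axis, had all its peaks downstream of the start site, in WT at 3007, 3580, 4134 and 4829 bp and in ΔMBD at 3539 and 4662 bp. Serpine2, a protease inhibitor, was the exception among them, with WT peaks at -437, 282, 858 and 1512 bp and none in the other 3 libraries. GFP listed none of these 4 genes. Over all WT genes, those with more WT peaks were listed in ΔCC more often, at 57.9% with 1 peak, 72.2% with 2 and 83.3% with 3 or more.

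**Figure D3:**
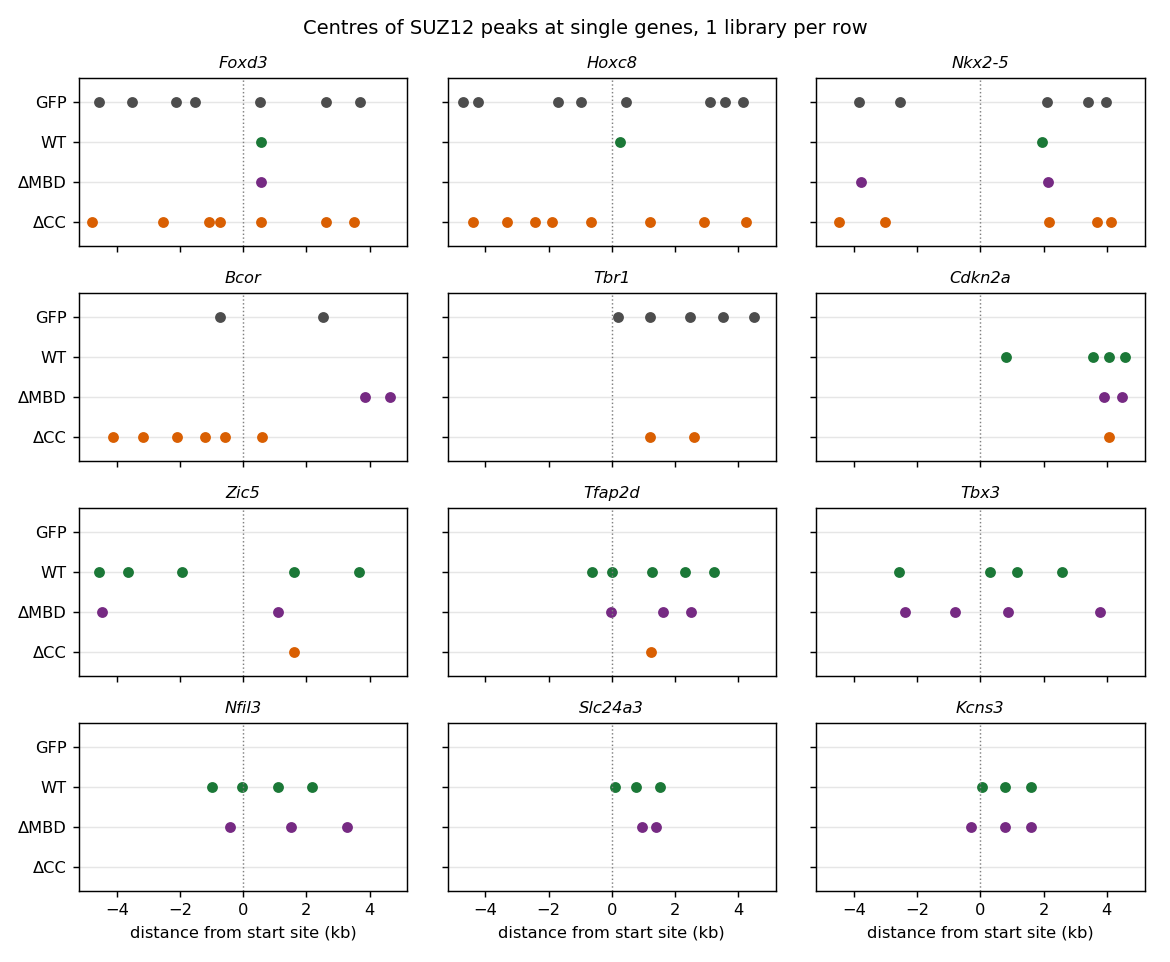
Centres of the SUZ12 peaks at 12 genes by distance from the start site (kb, x axis), 1 library per row: GFP, WT, ΔMBD and ΔCC. Foxd3 and Hoxc8 have 1 WT peak and 7 and 8 ΔCC peaks, Zic5 and Tfap2d have 5 WT peaks and 1 ΔCC peak, and Tbx3, Nfil3, Slc24a3 and Kcns3 have peaks in WT and ΔMBD alone.

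The largest family among the genes in ΔCC only was Hox, with 15 of its 35 ΔCC genes (42.9%), against 10.2% of all ΔCC genes. Of these 15, 14 were also listed in GFP and 7 in ΔMBD, against 44.4% and 34.7% of all 124 genes. Hoxc6 had ΔCC peaks at -4838, -3648, -2473 and 1289 bp, GFP peaks at -4541, -1665, 1259, 2839 and 3936 bp and ΔMBD peaks at -3223 and 1760 bp. Hoxb4 had ΔCC peaks at -4808, -3512, -1849, 1266 and 3841 bp and GFP peaks at -3631, -2385, -915, 972 and 4204 bp. Hoxd13, of digits and genital tubercle, had ΔCC peaks at -4952, -3950, -3330, 430 and 2501 bp and GFP peaks at -4204, -2134, 589 and 4603 bp. WT had no peak at these 3 genes, and ΔMBD none at Hoxb4 and Hoxd13. A peak is linked to the nearest gene on each side, so in these dense clusters a gene can be without a listed peak while a neighbour has one.

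Outside the Hox clusters, 8 transcription factors were in ΔCC only. Even with Hox included, the transcription factor families had 23 of their 298 ΔCC genes in ΔCC only (7.72%). The share of all ΔCC genes was 10.2%. Tbr1, a T-box factor of cortical neurons, had ΔCC peaks at 1220 and 2612 bp and GFP peaks at 197, 1224, 2466, 3519 and 4493 bp, with none in WT or ΔMBD. Dlx1, a homeobox factor of interneurons, had ΔCC peaks at -941 and 2568 bp, GFP peaks at -962, 769 and 4167 bp and a ΔMBD peak at 2855 bp. Id4, an inhibitor of bHLH factors, had 1 peak in each library but WT, at 525 bp in ΔCC, 1075 bp in GFP and 173 bp in ΔMBD. By contrast Zeb1, a regulator of the transition from epithelium to mesenchyme, had its peak in ΔCC alone, at 1078 bp, as had Hes7 of the segmentation clock at 1206 bp and Esrra, an orphan nuclear receptor, at -3456 bp.

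Among the other ΔCC-only genes, Bcor was one of those with the most peaks. It encodes a corepressor of a variant Polycomb complex PRC1 and had ΔCC peaks at -4117, -3173, -2108, -1195, -569 and 591 bp, GFP peaks at -746 and 2542 bp, ΔMBD peaks at 3863 and 4657 bp and none in WT. Cacnb3, a calcium channel subunit, had ΔCC peaks at -2182, -1491 and -683 bp and a GFP peak at -1623 bp. Gm13283 (7 ΔCC peaks), Gm13275 (6) and Ifnz (5) belong to the interferon zeta cluster of near-identical copies, and their peaks are uncertain because reads can be divided between the copies. Of the 124 genes, 55 were listed in GFP, 43 in ΔMBD and 47 in neither.

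Genes of the Polycomb and NuRD complexes were themselves partly among the SUZ12 sites. Of the PRC1 list, Bmi1, Bahd1 and Bcorl1 were among those in both lists, Cbx2 and Yaf2 in WT only, and Bcor and Cbx8 in ΔCC only. Bmi1, the RING-type partner that stimulates the PRC1 ligase, had WT peaks at -4344, -2451, -1823 and 1332 bp and ΔCC peaks at -4290, -1300, 1006, 2197 and 4805 bp. Its upstream peaks were also linked to the neighbour Commd3. From the start site of Commd3, the farthest of them was centred at 251 bp in WT and 305 bp in ΔCC. Cbx2, a chromodomain reader of the PRC2 mark, had a WT peak at -467 bp alone, and Cbx8, another such reader, a ΔCC peak at -4028 bp and GFP peaks at -1610, 765 and 4858 bp. Yaf2, a subunit of variant PRC1, had a WT peak at -215 bp and ΔMBD peaks at -693 and 526 bp. Members of the list were thus found in each of the 3 gene sets.

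Of the NuRD list, Chd3, a remodelling ATPase, was in WT only, with WT peaks at 844 and 1288 bp and ΔMBD peaks at 455 and 1717 bp. Zfp423, a zinc finger partner of NuRD, had a WT peak at -1374 bp and ΔCC peaks at -3028, -795, 633 and 1483 bp. No gene of the PRC2 list was listed in either library.

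Genes in both lists also differed in how many peaks they had, and transcription factors stood out in the direction opposite to the list lengths. Over the 1097 genes, 374 had more peaks in ΔCC (34.1%), 297 had fewer (27.1%) and 426 the same number. Of the 275 transcription factors, 138 had more (50.2%, interval 44.1 to 56.2) and 58 fewer (21.1%, interval 16.4 to 26.4). Of the 822 other genes, 236 had more (28.7%, interval 25.6 to 31.9) and 239 fewer (29.1%, interval 26.0 to 32.3). The transcription factors went from 532 peaks in WT to 692 in ΔCC, a mean of 1.93 and 2.52 per gene, while the other genes had 1414 and 1437, a mean of 1.72 and 1.75. Without the Hox genes 124 of 255 had more and 55 fewer, so the difference did not rest on the Hox clusters.

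The count over all genes depended on how close peaks were treated, but that of the transcription factors kept its order. With peaks whose centres lay within 1 kb of each other joined to 1, 260 of the shared genes had more peaks in ΔCC and 287 fewer, the reverse of the order above. For transcription factors the counts were then 121 and 64. In the other libraries the same 275 transcription factors had a mean of 2.28 peaks in GFP and 2.10 in ΔMBD, with unlisted genes as 0, and the 822 other genes 1.34 and 1.93. These genes were chosen as listed in WT and ΔCC and need not be listed in GFP or ΔMBD. The mean of the transcription factors was nevertheless higher in GFP than in WT, and that of the other genes was lower. GFP listed 263 of the 275 transcription factors but 650 of the 822 other genes. The lower mean of the other genes thus includes unlisted genes counted as 0. It cannot be read as fewer peaks at the genes that GFP listed.

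**Figure D4:**
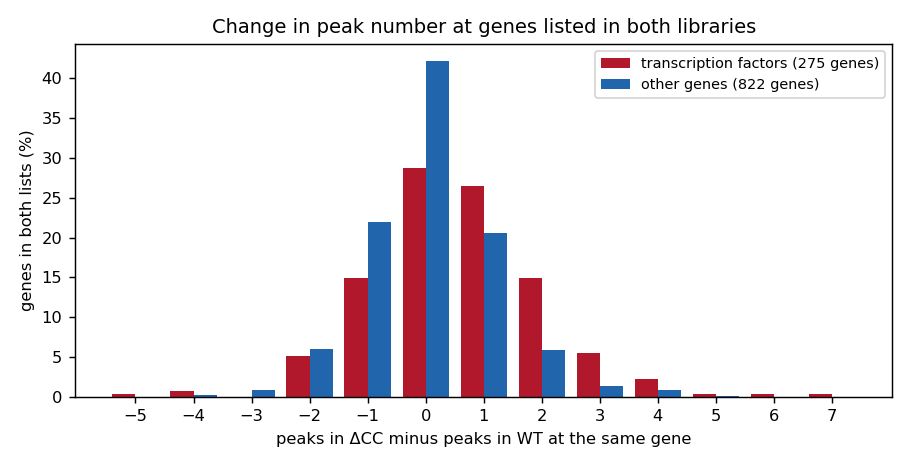
The number of peaks in ΔCC minus that in WT at each gene listed in both libraries (x axis), as a percent of 275 transcription factors (red) and 822 other genes (blue). The red bars exceed the blue at each gain of 1 to 7 peaks, and the blue bars are taller at 0 and at a loss of 1.

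By family, the shared genes had more peaks in ΔCC than in WT in 11 of the 14 transcription factor families. The other homeobox genes went from 137 peaks to 192, the forkhead genes from 24 to 40 and the Hox genes from 51 to 81. The sodium, calcium and other channels went furthest the other way among the families outside transcription factors, from 34 to 22 at 14 genes.

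Foxd3, a forkhead factor of neural crest and of early pluripotent cells, was among the genes with the largest gain. Its WT peak was centred at 565 bp and its ΔMBD peak at 566 bp, while ΔCC had peaks at -4779, -2529, -1097, -727, 561, 2621 and 3518 bp and GFP at -4555, -3518, -2114, -1524, 535, 2638 and 3709 bp. Nkx2-5, a homeobox factor of the heart, had a WT peak at 1959 bp, ΔCC peaks at -4479, -3003, 2181, 3690 and 4123 bp, GFP peaks at -3857, -2546, 2106, 3411 and 3975 bp and ΔMBD peaks at -3793 and 2129 bp. En2, a homeobox factor of midbrain and cerebellum, had a WT peak at 633 bp, a ΔMBD peak at 797 bp, GFP peaks at -4267, -1948 and 1279 bp and ΔCC peaks at -3791, -2500, -1809, 1182 and 4182 bp. In Foxd3, Nkx2-5 and En2 the WT centre had a ΔCC centre within 1 kb, and the added ΔCC centres lay up to 5 kb away on both sides of the start site. With so many ΔCC centres, a match within 1 kb was likely at many positions. GFP had as many peaks as ΔCC at Foxd3 and Nkx2-5, and fewer at En2.

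Ligand and matrix genes were also among those with gains. Fgf8, a ligand of the midbrain boundary and the limb, had a WT peak at 530 bp, ΔCC peaks at -3078, -1633, -669, 945 and 4479 bp, GFP peaks at -518 and 1569 bp and ΔMBD peaks at -3004, -1952 and 445 bp. Bcan, which encodes the brain proteoglycan brevican, had a WT peak at 359 bp, ΔCC peaks at -819, 777, 1919, 2473 and 3183 bp, GFP peaks at -1900, -343 and 961 bp and ΔMBD peaks at 816, 1848 and 2577 bp. At both genes every other library had more peaks than WT. Gains of 3 or more peaks were seen at 24 of the 275 shared transcription factors and 19 of the 822 other shared genes.

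Losses of 3 or more peaks were fewer, at 3 of the 275 transcription factors and 9 of the 822 other genes, which are similar shares. Zic5, a zinc finger factor of the dorsal neural tube, had WT peaks at -4560, -3635, -1949, 1611 and 3683 bp and a single ΔCC peak at 1600 bp. Tfap2d, an AP-2 factor, had WT peaks at -635, -3, 1262, 2323 and 3241 bp and a ΔCC peak at 1245 bp. Neither Zic5 nor Tfap2d was listed in GFP.

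The inhibitor gene Cdkn2a, which encodes p16 and ARF, had WT peaks at 819, 3558, 4063 and 4585 bp and a ΔCC peak at 4062 bp. Kremen2, a receptor for Wnt antagonists, had WT peaks at 733, 1870, 2801, 4044 and 4739 bp and a ΔCC peak at 2681 bp, and its neighbour Paqr4 shared the same peaks. Irf2, an interferon regulatory factor, had WT peaks at -2985, -2449, -1763 and 1037 bp and a ΔCC peak at 194 bp. In Zic5, Tfap2d, Cdkn2a, Kremen2 and Irf2 alike, the single ΔCC centre fell within 1 kb of a WT centre. With so many WT centres, much of the window lay within 1 kb of one. Such a match therefore cannot show that a peak stayed in place.

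The position of the nearest peak also differed between the sets. In WT, the nearest centre was 1 kb or less from the start site for 68.3% of the genes in both lists (interval 65.4 to 71.0) and for 82.2% of those in WT only (interval 78.8 to 85.3), and the median distances were 653 and 480 bp. In ΔCC, it lay within 1 kb for 73.0% of the genes in both lists and for 62.9% of those in ΔCC only (interval 53.8 to 71.4), with median distances of 588 and 674 bp. WT-only genes had a single peak in 67.7% of cases and 3 or more in 6.88%, against 48.2% and 17.7% of the genes in both lists. The nearest WT centre was farther from the start site at transcription factors than at other genes, with a median of 925 bp against 536 bp. Upstream centres made up 26.3% of the nearest WT centres at genes in both lists and 27.7% in WT only. Of the nearest ΔCC centres, 26.9% were upstream at genes in both lists and 33.1% in ΔCC only. The interval of the latter, 24.9 to 42.1, contained the 26.9%.

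**Figure D5:**
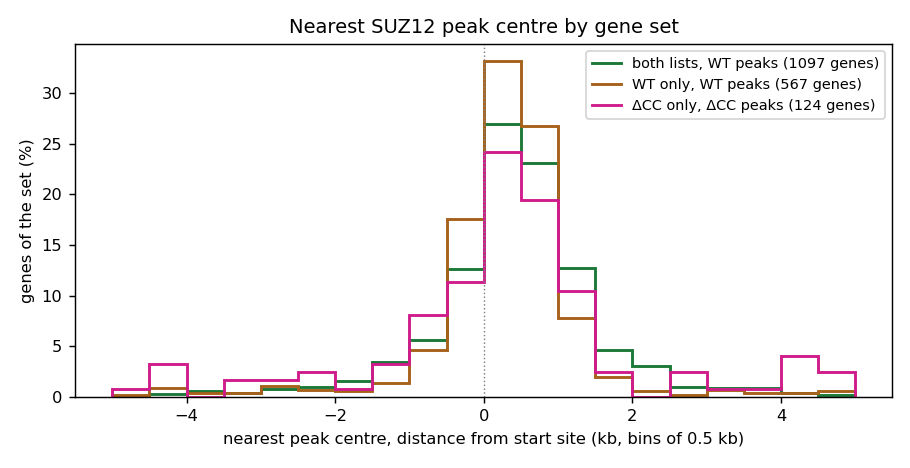
The distance of the nearest SUZ12 peak centre from the start site (kb, bins of 0.5 kb, negative upstream) as a percent of the genes of each set: both lists by WT peaks, WT only by WT peaks, and ΔCC only by ΔCC peaks. The WT-only curve is the highest just downstream and just upstream of the start site, and the curve of the 124 ΔCC-only genes has the most genes beyond 4 kb downstream.

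At genes in both lists, peaks were often but not always at the same place. Of the WT peaks at these genes, 68.6% at transcription factors and 75.1% at other genes had a ΔCC centre within 1 kb. Of the ΔCC peaks, 57.4% at transcription factors (interval 53.6 to 61.1) and 78.8% at other genes (interval 76.6 to 80.9) had a WT centre within 1 kb. The shared transcription factors had 692 ΔCC peaks against 532 in WT, so their lower share cannot be separated from that gain in peak number. With a limit of 2 kb the ΔCC shares were 74.6% and 93.7%. The 519 WT peaks without a ΔCC partner at these genes lay within 1 kb of the start site in 17.0% of cases, against 53.6% of the matched WT peaks. For the 600 ΔCC peaks without a WT partner the share was 23.7%. The share of matched ΔCC peaks was not computed, so that value has no baseline from its own library.

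Where a gene had 1 peak in each library, the centres lay close together. Over 274 such genes the median shift was 300 bp (quartiles 138 and 553 bp), and 89.8% were within 1 kb. The farthest was Lhx2, a LIM homeobox factor of forebrain and eye, with the WT centre at 3711 bp and the ΔCC centre at -4992 bp. Sox14, a Sox factor of the nervous system, followed with -2823 bp in WT and 4436 bp in ΔCC, and Elfn1, a synaptic adhesion gene, with 1071 and 4901 bp. The shift at Lhx2 and Sox14 crossed the start site.

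The libraries that were not used to form the sets divided them differently. Of the 567 WT-only genes, 428 were listed in ΔMBD (75.5%, interval 71.7 to 79.0), 66 in GFP (11.6%, interval 9.12 to 14.6) and 133 in neither. Of the 124 ΔCC-only genes, more were listed in GFP (44.4%) than in ΔMBD (34.7%). For the 23 transcription factors among them the counts were 17 and 10. The 15 Hox genes made up 14 and 7 of these, so the difference between the counts lay in the Hox clusters. Genes in both lists were nearly all in ΔMBD (97.4%), and in GFP they numbered 263 of 275 transcription factors (95.6%, interval 92.5 to 97.7) and 650 of 822 other genes (79.1%, interval 76.1 to 81.8). The lists of GFP and ΔCC were the shorter ones of the 4, with 1051 and 1221 genes against 1664 in WT and 1677 in ΔMBD, so the length of a list and its construct cannot be told apart in these shares.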

How the data were processed

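SUZ12 ChIP-seq peaks from Mbd3-knockout mouse ESCs were analysed from the tables deposited by the authors, 1 library per construct. Per the submitters' processing notes, bcl2fastq 2.18.0.12, MACS2 and the build mm9 were used. For the aligner and for the version, settings and threshold of MACS2, the sources used here say nothing. Per the file headers, peaks were linked to genes with GREAT 3.0.0, to the nearest gene on each side and no farther than 5000 bp, and curated regulatory domains were included. The deposited tables give, as other text per gene, peak names and the signed distance of each peak centre from the start site in bp. They give no read count, width or height, so depth is unknown.

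From these, genes with a peak within 5000 bp were counted, lines that repeat a symbol were joined, and peaks of 2 libraries at the same gene were matched when their centres lay within 1000 bp. Matching by overlap needs widths and was replaced by centre distance. Of the 1788 genes, 1691 matched a RefSeq symbol, 55 a synonym and 42 neither. The latter kept the files' names. Shares carry exact 95% Clopper-Pearson intervals, and no test was made. The functions were tested on simulated data. The tools were matplotlib 3.10.9, SciPy 1.17.1, NumPy 2.4.6 and Python 3.11.15.

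The members, the 44 families and lists and the alternatives were chosen with earlier results of these data known, and some name patterns (for example of Htra, Ppargc, Ptchd and Celsr genes) were corrected after the listed names were seen. Genes named with values were, per family or list, all members in a single library where 6 or fewer and otherwise the 5 with the most peaks, from which the text takes a part. To these came the 12 genes with the most peaks in WT only and in ΔCC only, the 10 largest gains and losses of peaks, the 6 farthest shifts, and the PRC1 and NuRD lists. A few of these genes are not reported here. Fgf8, Nkx2-5 and genes given without values were named outside this rule, after their values were seen. Promoters printed are those of the genes with the most peaks, per set, among genes with a single RefSeq window and a peak centred in it. For genes in both lists, a centre in the window was needed in both libraries. Clone-named genes and the genes of a chromosome that was set aside were left out.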

Additional observations from a re-analysis of the deposited data

Results flagged for a closer look

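Links from a peak to a gene farther than 5 kb away entered no comparison. In ΔCC 16 peaks had such a link, against 3 in WT, 10 in GFP and 6 in ΔMBD. The links went to Evc2, 8.93 to 8.95 Mb away, and to 6 olfactory receptor genes about 11.3 Mb away. A peak with such a link was still counted at any gene within 5 kb, and how often this occurred was not examined. No control library without antibody gives a background for these peaks here. The links were set apart because they lie outside the main measurement.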

How the results depend on the processing

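Of 91 values under other settings, 62 stayed within their interval or within 1.5 times the main count and 29 moved. Transcription factors had the higher kept share in 7 of 7 settings. With a window of 1 kb, ΔCC-only genes numbered 228 and the kept share of WT genes was 53.6%, with 67.3% for transcription factors and 51.4% for other genes. At 1 kb, 126 shared genes had more peaks in ΔCC and 66 more in WT, with 18 and 7 transcription factors, and 16.5% of WT-only genes were listed in GFP and 67.9% in ΔMBD. Counting genes with at least 2 peaks left 183 in WT only and 35 in ΔCC only, with kept shares of 75.6% for all and 71.1% for other genes. Matching centres within 500 bp gave 36.8% of WT peaks and 44.8% of ΔCC peaks, and within 2000 bp 63.9% and 80.9%. Nearest centres within 500 and 2000 bp made up 39.6% and 90.6% (both lists, WT peaks), 51.0% and 93.8% (WT only), 43.4% and 91.9% (both lists, ΔCC peaks) and 35.5% and 79.8% (ΔCC only). The shares by transcription factor, their peak numbers and the listing at 1 kb were added after seeing the data. The cause of these changes was not tested.

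No paired analysis was possible because each group has 1 library, and leaving out a replicate was not run for the same reason. Peak strength and widths are unknown, and a stricter peak threshold was not run. A comparison of promoter GC and CG content was not run, since fewer than 80% of the genes had a promoter window.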
